A study of Mus musculus with 8 samples.

Results

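Pax2, Pax8, Oc90, Fbxo2, Otx1 and Sall1 are 6 genes used by the otic vesicle, the epithelial sac that forms the inner ear. They were looked up by symbol among the 55421 gene identifiers of the table, and all 6 were found. The set was drawn up with earlier results of these data known, but no measured value enters the rule. Expression was measured by RNA-seq in 8 libraries from mouse embryos at embryonic day 9.5, each made from the vagal region, which spans somites 1 to 7. Of these, 4 libraries came from Rdh10(trex/trex) mutants, homozygous for the trex allele (trex), and 4 from wt embryos (wt). No driver, transgene or treatment is named for either group. Rdh10 is a retinol dehydrogenase, and its product retinaldehyde is the precursor of retinoic acid. Nothing in the labels says whether a library is 1 embryo or a pool, or which litters were used; p-values therefore reflect only how these libraries vary, and part of that may be technical.

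The otic vesicle lies beside the hindbrain just in front of the first somites, next to the rostral end of the dissected block. Pax2 and Pax8 are paired-box transcription factors that act early in the otic placode and in the nephric lineage of the intermediate mesoderm, and Pax8 also marks the thyroid primordium. Oc90 encodes otoconin-90, the main protein of the mineral grains of the balance organs, and is made by otic epithelium. Fbxo2 encodes an F-box protein that brings glycoproteins to a ubiquitin ligase and is abundant in the inner ear and in neurons. Otx1 is a homeobox factor of forebrain, midbrain and part of the otic wall, and Sall1 a zinc finger factor of kidney, limb, neural tissue and ear.

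Values are TPM, transcripts scaled by gene length and library total, so levels can be compared between genes. Whole reads could be recovered from them, and the libraries held between 20928981 and 23648646 reads. Libraries correlated at 0.964 to 0.988 within trex and 0.979 to 0.987 within wt on the log2(TPM + 1) scale. Trex replicate 1 stood apart: it was the highest of all 8 libraries for 38.2% of 15717 tested genes. The sum of 4 Y-linked genes was at most 0.0662 TPM in all 4 trex libraries and in wt replicates 1 and 4, against 162.3 and 157.6 TPM in the other wt libraries, so sex is uneven between the groups. A gene was tested at a mean of at least 1 TPM and called at an adjusted p below 0.05 in limma (log2(TPM + 1), Benjamini-Hochberg over all tested genes). Of all tested genes 1369, or 8.71%, were called: 777 (4.94%) were higher and 592 (3.77%) lower in trex. With sex as a covariate, the genotype difference rests on the 4 trex libraries against wt replicates 1 and 4 alone, which leaves fewer libraries for it. In that model 39 genes were called, and of the called genes named here Nkx2-1 alone was among them. After quantile normalization the split was 633 higher and 739 lower.

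The stretches in front of Pax8 and Fbxo2 are shown because trex replicate 1 held 2.97 times (Pax8) and 3.36 times (Fbxo2) the mean of the other trex libraries. The sequences are from RefSeq (GRCm38.p6), 5′ to 3′ on the gene's strand. Pax8 is given over the 250 bases before its start (chr2:24475600-24475849, minus strand). Fbxo2 is given over the 138 bases between its start and that of the divergent gene Fbxo44 (chr4:148160483-148160620, plus strand). Capitals mark CCAAT (the CCAAT box) and GGGCGG (the GC box), searched on both strands.
Pax8: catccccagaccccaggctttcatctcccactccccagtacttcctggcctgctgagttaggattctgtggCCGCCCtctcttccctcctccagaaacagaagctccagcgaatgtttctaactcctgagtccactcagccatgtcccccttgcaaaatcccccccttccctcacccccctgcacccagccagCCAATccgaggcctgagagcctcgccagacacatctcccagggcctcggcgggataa
Fbxo2: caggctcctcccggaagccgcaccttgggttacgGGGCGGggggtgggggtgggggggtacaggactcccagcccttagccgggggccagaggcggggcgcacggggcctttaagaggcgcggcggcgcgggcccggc
The Pax8 stretch held 1 CCAAT and 1 GGGCGG, and the Fbxo2 stretch held 1 GGGCGG. Windows of 300 bases around a start (250 before, 50 after) were available for 4 of the 6 members, 8 windows in all. GGGCGG was found in 6 of these 8 and in 35.7% of all 32851 windows, CCAAT in 2 of 8 and in 37.4%. AGGTCA, the half-site of retinoic acid receptors, was found in 0 of 8 member windows and in 16.3% of all windows. ACGTG and GCGTG, the core letters bound by hypoxia-inducible factors, were in 0 of 8 and 4 of 8 member windows, against 19.6% and 32.4% of all. A match describes letters only, and these letters may lie elsewhere.

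None of the 6 genes was called between trex and wt, and the groups overlapped for all 6. Of the 6 genes, 4 passed the filter on low values (Pax2, Pax8, Fbxo2 and Sall1), and limma called 0 of these 4. At an unadjusted p below 0.05, the count was also 0 of 4, and limma voom on the recovered reads called 0 of 4. Among all tested genes 8.71% were called (4.94% higher, 3.77% lower), and 29.0% had an unadjusted p below 0.05. Trex and wt were fully separated in 21.8% of them, with trex above in 12.9% and below in 8.95%. The median log2 difference of the 4 genes was 0.15, where that of all tested genes was 0.039. In bulk tissue, fewer otic cells and less RNA per otic cell cannot be told apart.

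The 6 genes differed widely in level. Sall1 was far above the rest in every library, Fbxo2 and Pax8 followed, and their ranges overlapped in both groups. Pax2 came next, overlapping Fbxo2 in trex and Pax8 in wt, then Otx1, then Oc90, which was at 0 in 7 of 8 libraries. All 48 values of the 6 genes were whole reads within 0.01 read, and several rested on few reads. Intervals given for reads are exact Poisson 95% intervals and cover counting error only.

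**Figure D1:**
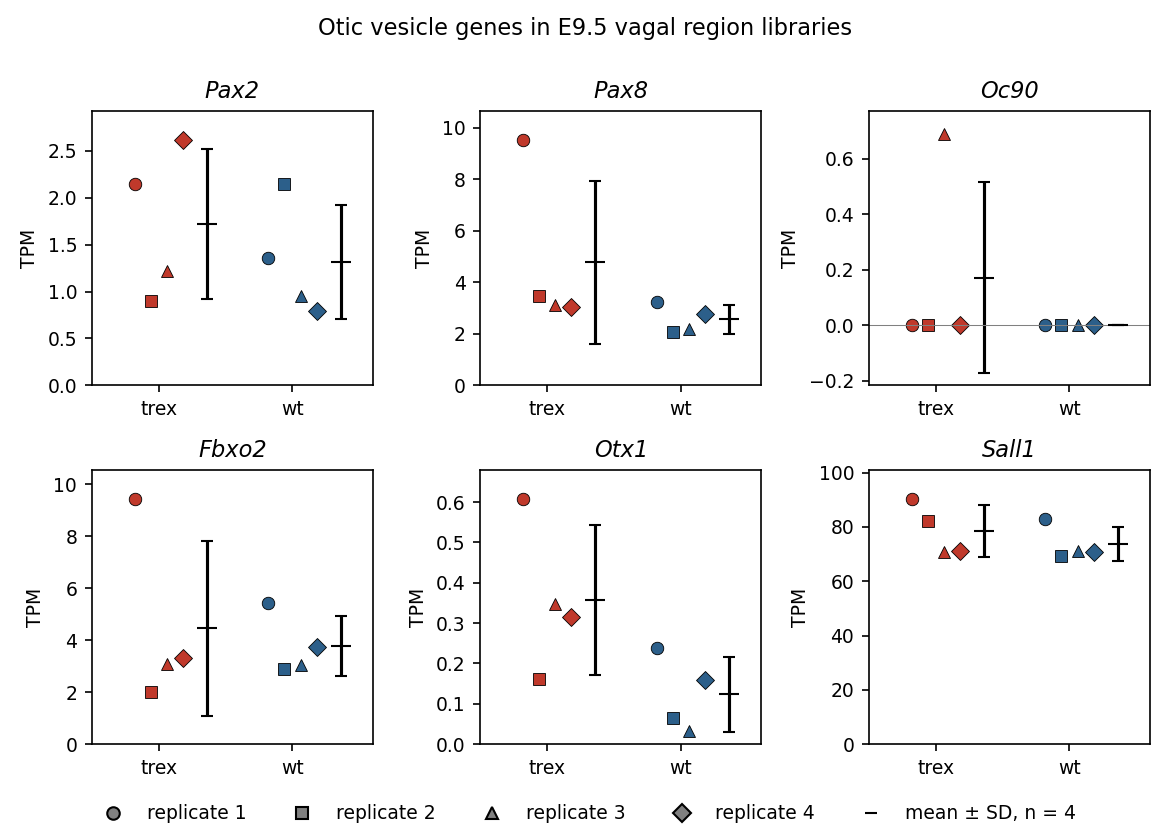
TPM of the 6 genes in each library, trex left of wt, with marker shape for the replicate and mean ± SD (n = 4) beside each group. Trex replicate 1 holds the highest value of Pax8 (9.52), Fbxo2 (9.42), Otx1 (0.607) and Sall1 (90.3), trex replicate 4 that of Pax2 (2.61), and trex replicate 3 the single value of Oc90 above 0 (0.690).

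Pax8 (ENSMUSG00000026976, mm10, chromosome 2, 24420560 to 24475599, minus strand) had the largest log2 difference of the 4 tested genes, and the difference shrank without trex replicate 1. It stood at 9.52, 3.47, 3.11 and 3.04 TPM in trex replicates 1 to 4, against 3.25, 2.07, 2.18 and 2.75 TPM in wt replicates 1 to 4. Trex replicate 1 was high, and the other 3 mutant libraries lay around the highest wt library. Those values rested on 333 reads in trex replicate 1 (interval 298.2 to 370.8) and on 100 to 121 reads in the other trex libraries. Pax8 averaged 4.78 ± 3.17 TPM in the mutants, against 2.56 ± 0.549 TPM in wt (± SD, 4 libraries each), 1.87-fold. The log2 difference was 0.58 ± 0.31 (SE; 95% interval -0.11 to 1.28), with an adjusted p of 0.239 in limma. By exact permutation, two-sided, p was 0.0857, where the smallest possible is 0.0286. Without trex replicate 1 the log2 difference was 0.25, with an adjusted p of 0.306 in limma.

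Pax2 (ENSMUSG00000004231, chromosome 19, 44756045 to 44837871, plus strand), the close relative of Pax8, did not share that pattern. It stood at 2.15, 0.90, 1.22 and 2.61 TPM in trex replicates 1 to 4, against 1.36, 2.15, 0.95 and 0.795 TPM in wt replicates 1 to 4. Trex replicates 1 and 4 and wt replicate 2 were high, and the other 5 libraries lay between 0.795 and 1.36 TPM. The means were 1.72 ± 0.797 TPM in the mutants, against 1.31 ± 0.607 TPM in wt (± SD, 4 libraries each), 1.31-fold. The log2 difference was 0.22 ± 0.26 (SE; 95% interval -0.37 to 0.81; adjusted p = 0.599 in limma). Each value rested on 28 to 83 reads in trex and 25 to 66 reads in wt.

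The ratio of Pax2 to Pax8 within a library does not depend on scaling. It was 0.225, 0.259, 0.392 and 0.861 in trex replicates 1 to 4, against 0.419, 1.04, 0.437 and 0.289 in wt replicates 1 to 4. The groups overlapped, with trex replicate 4 and wt replicate 2 standing high in their groups. The mean log2 ratio was -1.42 ± 0.87 in the mutants, against -1.05 ± 0.78 in wt (± SD, 4 libraries each). The difference of -0.37 had p = 0.486 in an exact two-sided permutation test.

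Oc90, the member most restricted to the ear, was nearly absent. Oc90 (ENSMUSG00000015001, chromosome 15, 65876053 to 65912397, minus strand) was at 0 TPM in trex replicates 1, 2 and 4 and at 0.690 TPM in trex replicate 3, against 0 TPM in all 4 wt libraries. The value in trex replicate 3 was 7 reads (interval 2.81 to 14.4). For a count of 0 the limit was set at 3 reads, a floor apart from the two-sided intervals, which is 0.267 to 0.273 TPM in the trex libraries at 0 and 0.269 to 0.289 TPM in wt. Oc90 lay below the filter and was not tested. Fitted without the filter, it had an adjusted p of 0.595 in limma.

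The label of the set was therefore not borne out by Oc90. Most other genes of the otic membranes and matrix were also below 1 TPM. Of 10 such genes, Tectb and Otos, which encode proteins of the cochlea, were at 0 in all 8 libraries, and 7, these 2 included, stayed below 1 TPM throughout. The exceptions to that count were Otog (a glycoprotein of the membranes over the sensory cells), which exceeded 1 TPM in trex replicate 1 alone, and Col9a1 and Sparcl1, which are also made by other tissues. Tecta, which encodes a protein of the tectorial membrane and is named after its values were seen, was low but differed between the groups. It stood at 0.0234, 0.117, 0.229 and 0.184 TPM in trex replicates 1 to 4, against 0.770, 0.881, 0.555 and 0.557 TPM in wt replicates 1 to 4. The groups did not overlap, with 23 reads over the trex libraries and 116 reads over the wt libraries. Below the filter, it was called lower when fitted without it (log2 difference -0.57 ± 0.10, SE; adjusted p = 0.0314 in limma). Low values of membrane and matrix genes at embryonic day 9.5 do not show that otic tissue was absent. Of 11 otic regulators, 9 passed the filter. The 6 genes are described gene by gene and not as a measure of otic tissue.

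Fbxo2 (ENSMUSG00000041556, chromosome 4, 148160621 to 148166424, plus strand) was high in trex replicate 1 and not otherwise higher in the mutants. It stood at 9.42, 2.02, 3.07 and 3.31 TPM in trex replicates 1 to 4, against 5.43, 2.88, 3.06 and 3.74 TPM in wt replicates 1 to 4. Trex replicate 1 was the highest library and trex replicate 2 the lowest. The mean was 4.46 ± 3.36 TPM in the mutants, against 3.78 ± 1.16 TPM in wt (± SD, 4 libraries each), 1.18-fold. The log2 difference was 0.05 ± 0.36 (SE; 95% interval -0.76 to 0.87; adjusted p = 0.937 in limma). Without trex replicate 1 its sign changed, to -0.32 (adjusted p = 0.368 in limma). Each value rested on 15 to 70 reads in the mutants and 21 to 38 in wt.

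Otx1 (ENSMUSG00000005917, chromosome 11, 21994764 to 22002897, minus strand) was very low and lay below the filter. It stood at 0.607, 0.160, 0.348 and 0.314 TPM in trex replicates 1 to 4, against 0.238, 0.0651, 0.0316 and 0.159 TPM in wt replicates 1 to 4. Only trex replicate 2 fell within the wt range. The values rested on 44 reads over the trex libraries and 15 reads over the wt libraries. The means were 0.357 ± 0.186 TPM in the mutants, against 0.123 ± 0.0933 TPM in wt (± SD, 4 libraries each), 2.90-fold. By exact permutation, two-sided, p was 0.0571. Fitted without the filter, the log2 difference was 0.27 ± 0.11 (SE), with an unadjusted p of 0.0381 and an adjusted p of 0.237 in limma.

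Otx2, the close relative of Otx1 and a factor of forebrain and midbrain, also stood higher in the mutants without being called. It stood at 5.46, 0.535, 1.47 and 1.09 TPM in trex replicates 1 to 4, against 0.262, 0.125, 0.0812 and 0.408 TPM in wt replicates 1 to 4. The groups did not overlap, and trex replicate 1 was again the highest library (adjusted p = 0.106 in limma; 0.0409 without trex replicate 2 and 0.00330 with array weights).

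Sall1 (ENSMUSG00000031665, chromosome 8, 89027235 to 89044162, minus strand) was the most abundant and the steadiest member. It stood at 90.3, 82.1, 70.6 and 71.0 TPM in trex replicates 1 to 4, against 82.9, 69.5, 71.0 and 70.9 TPM in wt replicates 1 to 4. Trex replicates 1 and 2 and wt replicate 1 were high, and the other 5 libraries lay between 69.5 and 71.0 TPM. The mean was 78.5 ± 9.49 TPM in the mutants, against 73.6 ± 6.28 TPM in wt (± SD, 4 libraries each), 1.07-fold. The log2 difference was 0.09 ± 0.09 (SE; 95% interval -0.12 to 0.30; adjusted p = 0.548 in limma). With 1972 to 2742 reads per trex library and 2074 to 2373 per wt library, counting error was small.

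Several otic genes outside the set were also high in trex replicate 1, but not all. That library was the highest for 9 of 11 otic regulators and for 4 of the 8 membrane and matrix genes above 0. It was the lowest for 2 of those 8. Among tested genes alone, it was highest for 7 of 9 otic regulators and for 2 of 2 membrane and matrix genes. The share over all tested genes was 38.2%. The 2 tested membrane and matrix genes were Col9a1 and Sparcl1, which are also made by other tissues. Otol1, also counted among the 4, rested on 1 read. Hmx3, a homeobox factor of the otic vesicle, stood at 5.12, 0.119, 1.04 and 0 TPM in trex replicates 1 to 4, against 0.253, 0.363, 0 and 0.118 TPM in wt replicates 1 to 4. Its relative Hmx2 stood at 2.48, 0.162, 0.410 and 0.318 TPM in trex, against 0.0572, 0.110, 0.0533 and 0.0535 TPM in wt. Otog stood at 1.83 TPM in trex replicate 1 and at 0.0840 to 0.109 TPM in the other trex libraries, against 0.0331 to 0.107 TPM in wt. Trex replicate 1 was the highest library for each of the 3 genes, with 43, 46 and 109 reads. Their means were below 1 TPM, so none was tested. In that same library Oc90 was at 0 and Tecta at its lowest. Otogl, a relative of Otog, was also lowest there, at 0.0593 TPM where the other trex libraries held 0.317 to 0.538 TPM, against 0.231 to 0.469 TPM in wt.

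**Figure D2:**
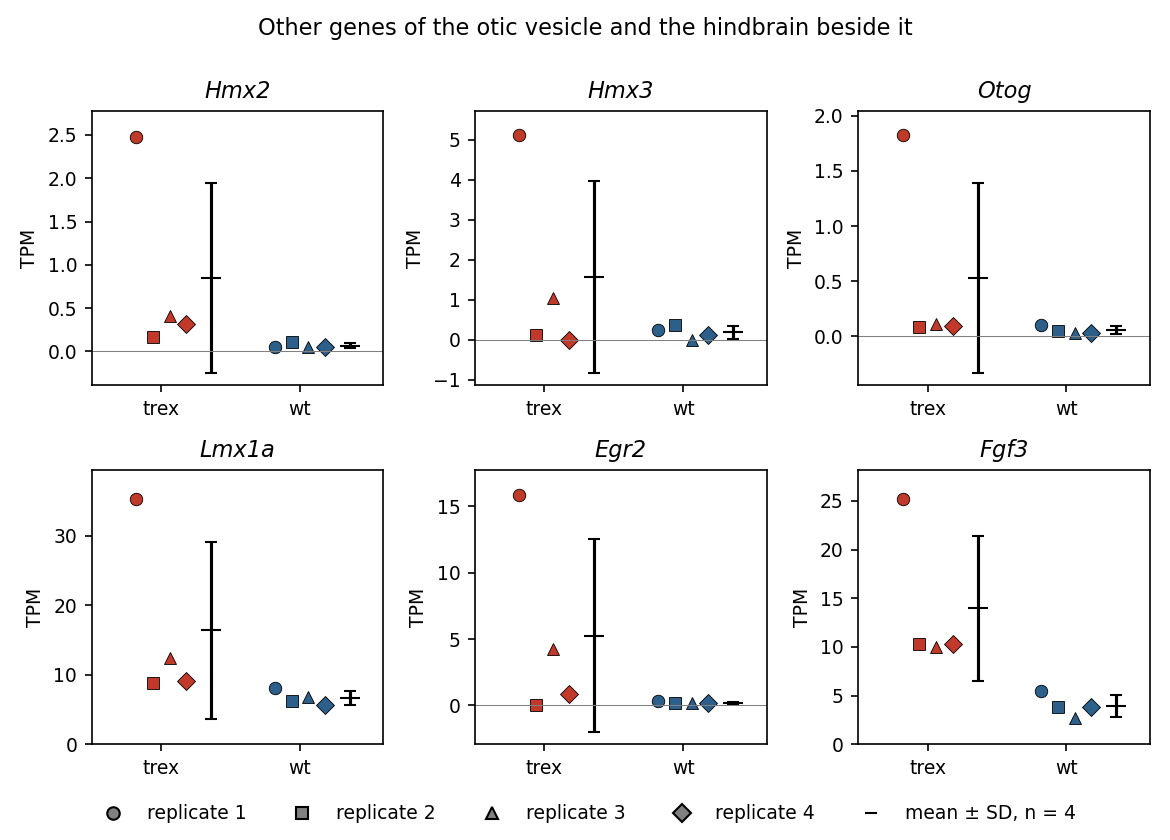
TPM of Hmx2, Hmx3, Otog, Lmx1a, Egr2 and Fgf3 in each library, trex left of wt, with marker shape for the replicate and mean ± SD (n = 4). Trex replicate 1 is the highest library in every panel, from 1.83 TPM of Otog to 35.3 TPM of Lmx1a, and the SD of trex is wide for that reason.

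Of 11 otic regulators, 9 were tested, 1 was higher, 1 was lower and 7 were not called. Their median log2 difference was 0.35, and 0.17 without trex replicate 1, where all tested genes had medians of 0.039 and 0.023. Shares over all tested genes were 4.94% called higher and 3.77% called lower. Dlx5, a homeobox factor of the dorsal otic vesicle and the pharyngeal arches, rose to 9.39 ± 2.65 TPM in trex, against 4.09 ± 0.410 TPM in wt (2.30-fold, adjusted p = 0.0149 in limma; 0.0534 without wt replicate 2). Gbx2, a homeobox factor of hindbrain and dorsal otic vesicle, fell to 16.9 ± 5.21 TPM in trex, against 27.6 ± 1.84 TPM in wt (adjusted p = 0.0414 in limma). That call held without trex replicate 1 or 2 but not without any 1 of the other libraries, where the adjusted p was up to 0.123.

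Lmx1a and Gata3, both transcription factors of the otic vesicle, were not called although their groups did not overlap. Lmx1a stood at 35.3, 8.85, 12.4 and 9.08 TPM in trex replicates 1 to 4, against 8.07, 6.23, 6.76 and 5.57 TPM in wt replicates 1 to 4 (adjusted p = 0.138 in limma). Gata3 stood at 13.5, 8.74, 9.15 and 9.33 TPM in trex, against 7.59, 6.92, 6.46 and 6.36 TPM in wt (adjusted p = 0.0591 in limma). Trex replicate 1 was highest for both. Gata3 was called without trex replicate 1 (adjusted p = 0.0346 in limma), without trex replicate 2 (0.0371) and with array weights (0.00327), and Lmx1a with array weights (0.00518).

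Among 12 genes of otic placode induction, all tested, 3 were higher, 1 was lower and 8 were not called. Their median log2 difference was 0.46, and 0.23 without trex replicate 1. Shares over all tested genes were 4.94% higher and 3.77% lower. Fgf3, a signal from the hindbrain that helps induce the otic placode, rose to 13.9 ± 7.50 TPM in trex, against 3.94 ± 1.15 TPM in wt (3.54-fold, adjusted p = 0.0222 in limma). Leaving out trex replicate 4 or any of wt replicates 2 to 4 ended that call, with an adjusted p of up to 0.0772. Sox9, a transcription factor of otic placode, crest and cartilage, rose to 61.2 ± 4.29 TPM in trex, against 43.7 ± 0.855 TPM in wt (1.40-fold, adjusted p = 0.00489 in limma). Sox3, of neural progenitors and placodes, fell to 32.5 ± 9.66 TPM in trex, against 86.3 ± 9.97 TPM in wt (adjusted p = 0.00837 in limma). Foxi3, a forkhead factor of the placodal ectoderm, averaged 6.48 ± 2.89 TPM in the mutants, against 5.62 ± 1.30 TPM in wt (adjusted p = 0.774 in limma, no call).

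Of the 10 prosensory and otic neuroblast genes, all tested, 4 were lower, none was higher and 6 were not called, with a median log2 difference of -0.45. Among all tested genes 3.77% were called lower. These genes are also active in the neural tube and cranial ganglia, so their levels are not otic levels. Neurog1, which starts otic and neural tube neurogenesis, fell to 12.6 ± 3.70 TPM in trex, against 40.6 ± 10.2 TPM in wt (adjusted p = 0.00820 in limma). Neurod1, which acts after it, fell to 4.22 ± 1.22 TPM in trex, against 16.9 ± 5.63 TPM in wt (adjusted p = 0.00942 in limma). Lfng, a modifier of Notch receptors in sensory patches and neural tube, fell to 51.3 ± 11.1 TPM in trex, against 86.0 ± 10.5 TPM in wt (adjusted p = 0.0239 in limma; up to 0.0845 without trex replicate 4 or wt replicate 1, 2 or 3). Trex replicate 1 was the lowest library for Neurog1 and Lfng.

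**Figure D3:**
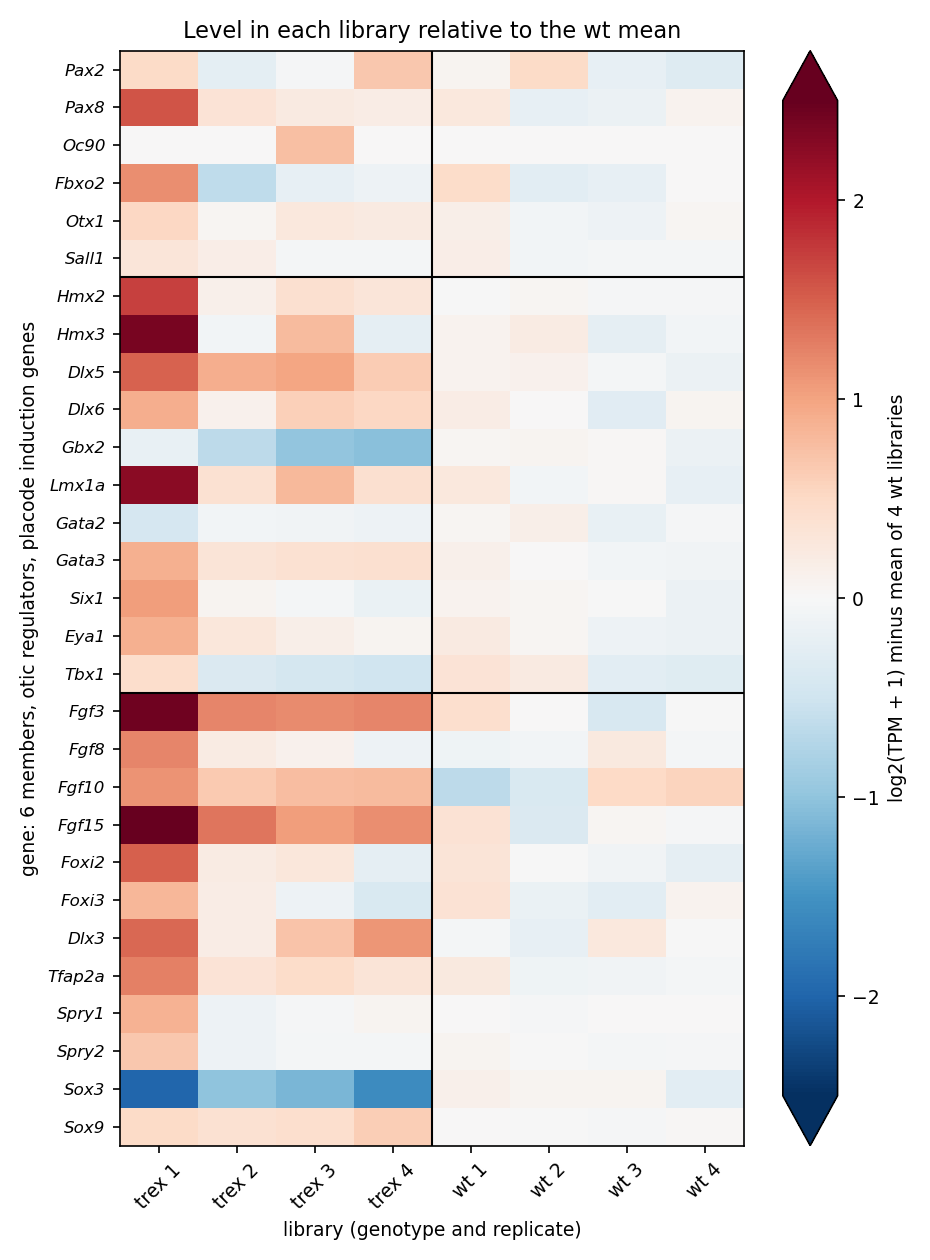
Level of the 6 members, 11 otic regulators and 12 placode induction genes in each library, as log2(TPM + 1) minus the mean of the 4 wt libraries, trex columns left of wt columns, with colours clipped at the ends of the scale. Trex replicate 1 is the reddest column, with Pax8 and Fbxo2 beside Hmx3 and Lmx1a, while Oc90 differs from 0 only in trex replicate 3.

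Hindbrain genes of the level beside the ear gave the same library order in part. Egr2, of rhombomeres 3 and 5, stood at 15.9, 0.0511, 4.27 and 0.902 TPM in trex replicates 1 to 4, against 0.325, 0.208, 0.202 and 0.152 TPM in wt replicates 1 to 4. Trex replicates 1 and 3 were high, the same 2 mutant libraries that were highest for Hmx3, and the groups overlapped (adjusted p = 0.194 in limma; 0.0491 without trex replicate 2 and 0.00677 with array weights). Hoxb1, of rhombomere 4 and the caudal hindbrain, fell to 20.4 ± 2.62 TPM in trex, against 33.6 ± 2.66 TPM in wt (adjusted p = 0.00874 in limma). Of 7 hindbrain genes none was higher, 2 were lower and 5 were not called, against 4.94% higher and 3.77% lower among all tested genes.

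Summed over the 11 otic regulators, the level was 252.9 TPM in trex replicate 1 and 120.1 to 136.4 TPM in the other trex libraries, against 120.5 to 152.0 TPM in wt. Summed over 10 epithelial genes, it was 947.5 TPM in trex replicate 1 and 482.0 to 769.7 TPM in the other trex libraries, against 425.5 to 509.9 TPM in wt. Epcam, an adhesion protein of epithelia, stood at 107.6 TPM in trex replicate 1 and at 52.9 to 72.2 TPM in the other trex libraries, against 59.5 to 71.9 TPM in wt (adjusted p = 0.647 in limma). Of the 10 epithelial genes 2 were higher and none lower, against 4.94% higher and 3.77% lower among all tested genes. Krt8, a keratin of simple epithelia, rose to 149.1 ± 45 TPM in trex, against 67.3 ± 11.5 TPM in wt (adjusted p = 0.0243 in limma; up to 0.0870 without trex replicate 3 or 4 or wt replicate 1, 2 or 3). Trex replicate 1 was also the highest library for all 8 low oxygen response genes, of which 5 were called higher (4.94% of all tested genes). Ldha, lactate dehydrogenase, stood at 3770 TPM there and at 2346 to 3084 TPM in the other trex libraries, against 1614 to 1790 TPM in wt (adjusted p = 0.0142 in limma; 0.0587 without wt replicate 2). The part of these shifts in the Pax8 and Fbxo2 levels of that library was not tested.

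Tissues other than the ear also use Pax2 and Pax8. Of 12 nephric and intermediate mesoderm genes, 11 were tested, none was higher and 2 were lower, with a median log2 difference of 0.14. Shares over all tested genes were 4.94% higher and 3.77% lower. Cdh16, a cadherin of kidney tubules, was near 0 in both groups. Osr1, an early factor of intermediate and lateral mesoderm, fell to 18.2 ± 3.42 TPM in trex, against 29.8 ± 3.17 TPM in wt (adjusted p = 0.0197 in limma; up to 0.0759 without trex replicate 4 or wt replicate 2 or 3). Lhx1, of nephric duct and neurons, stood at 1.75, 0.341, 1.06 and 1.55 TPM in trex replicates 1 to 4, against 2.85, 3.51, 2.52 and 2.49 TPM in wt replicates 1 to 4, and was not called (adjusted p = 0.0548 in limma). The groups did not overlap, and Lhx1 was called lower in 8 of the 19 alternatives that fitted it, with adjusted p of 0.00235 to 0.0491. Wt1, of nephric mesoderm and coelomic lining, averaged 8.19 ± 3.20 TPM in the mutants, against 6.36 ± 2.74 TPM in wt (adjusted p = 0.495 in limma). Nephric genes summed to 164.9 to 260.1 TPM in trex and 198.8 to 210.2 TPM in wt, and trex replicate 1 was the highest library for 5 of the 11 tested, or 45.5%, where the share over all tested genes was 38.2%. Gata3 and Eya1, both among the 5, are also among the otic regulators, so the 2 counts are not separate.

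Of 7 thyroid primordium genes 3 were tested, 1 was higher, 1 was lower and 1 was not called, with a median log2 difference of 0.66. Shares over all tested genes were 4.94% higher and 3.77% lower. Nkx2-1, a homeobox factor of thyroid and lung primordia, fell to 0.486 ± 0.277 TPM in trex, against 4.39 ± 1.23 TPM in wt (adjusted p = 0.00441 in limma). Foxe1, a forkhead factor of the thyroid primordium, rose to 6.71 ± 1.17 TPM in trex, against 3.58 ± 0.913 TPM in wt (1.87-fold, adjusted p = 0.0377 in limma). That call was lost with no filter (0.0811) and without trex replicate 1 or 4 or any 1 wt replicate (up to 0.0986). Hhex, of thyroid and liver primordia, averaged 10.2 ± 2.69 TPM in the mutants, against 6.01 ± 1.52 TPM in wt (adjusted p = 0.0925 in limma). Tshr, the thyrotropin receptor, stood at 0.784 to 1.61 TPM in trex, against 0.399 to 0.557 TPM in wt, and lay below the filter. At the midbrain boundary, where Pax2 and Pax8 are also used, 1 of 4 tested genes was lower and none higher. En1, a homeobox factor of isthmus and spinal neurons, fell to 1.43 ± 0.824 TPM in trex, against 5.41 ± 1.24 TPM in wt (adjusted p = 0.0166 in limma; up to 0.0655 without wt replicate 2 or 3). En2, more restricted to midbrain and isthmus, was at 0.289 TPM or less in trex and 0.146 TPM or less in wt. Of 7 forebrain and eye genes 2 reached the filter of 1 TPM; Six3 and Six6 were at or near 0 in all libraries.

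**Figure D4:**
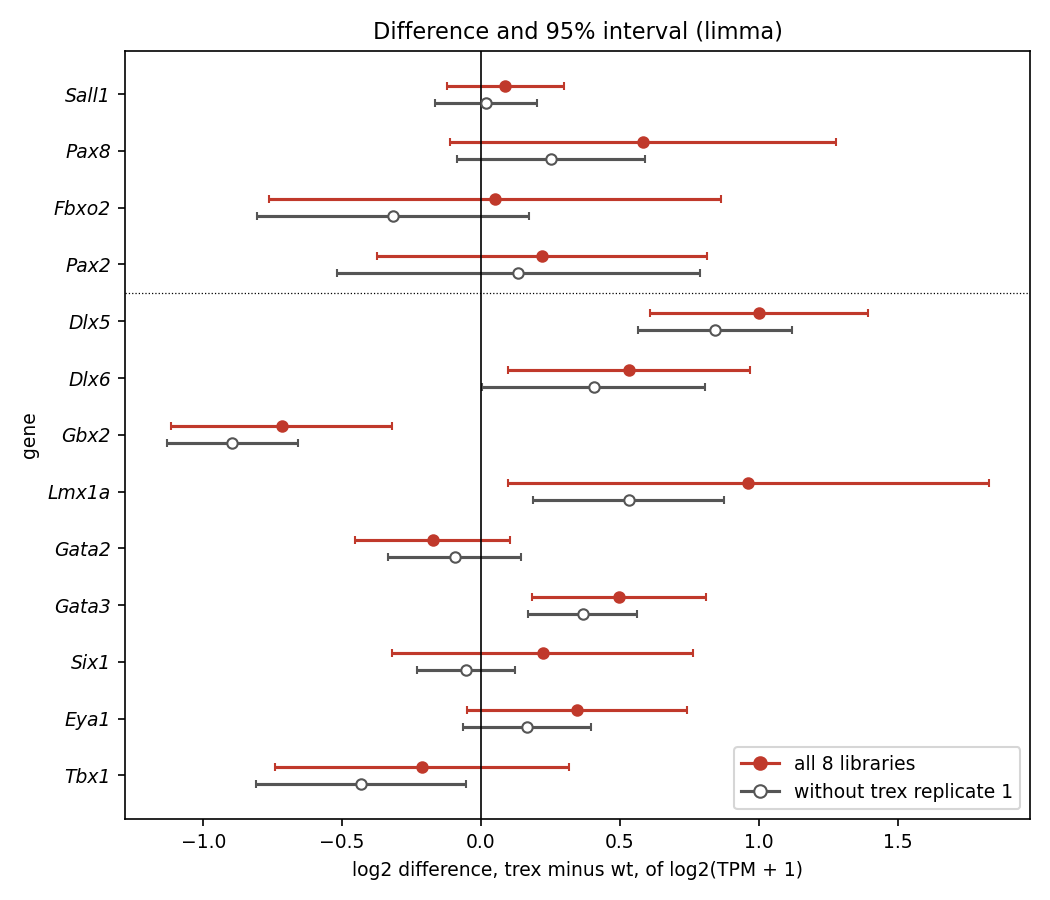
Log2 difference (trex minus wt, of log2(TPM + 1)) with its 95% interval from limma for the 4 tested members (above the dotted line) and the 9 tested otic regulators, with all 8 libraries (filled) and without trex replicate 1 (open). All intervals of the members include 0, and leaving out trex replicate 1 moves Pax8 from 0.58 to 0.25 and Fbxo2 from 0.05 to -0.32.

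The genes most like Pax2 and Oc90 across libraries were sought after the genotype means had been taken off, over 8 libraries. For Pax2 they were Tmem222 (r = 0.977), Pde4d (0.968), Fam171b (0.959), Them4 (0.958) and Rusc2 (0.958), all higher in trex replicates 1 and 4 than in trex replicates 2 and 3. For Oc90 they were Drp2 (0.972), Vamp5 (0.95), Zfp407 (0.946), Dkk1 (0.921) and Gpat2 (0.919). These were the highest of the trex libraries in replicate 3, which is all that the Oc90 pattern holds. They are the highest values among 15716 and 15717 genes, and 0.325% and 0.121% of genes had r above 0.9. The members themselves correlated with Pax2 at 0.172 (Pax8), 0.372 (Fbxo2), 0.349 (Otx1), -0.020 (Sall1) and -0.291 (Oc90).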

How the data were processed

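Poly-A selected, stranded RNA-seq libraries were made from vagal region tissue of 4 trex and 4 wt embryos or pools. The deposited values are TPM, 1 column per library; CASAVA 1.8.2, STAR and mm10 are named in the submitters' processing notes. The sources used here give no read counter, strand setting, annotation or gene lengths, so reads shared between overlapping genes cannot be assigned. Symbols, positions and exonic lengths came from GENCODE M21 (same assembly), which matched 55240 of 55421 identifiers. TPM multiplied by exonic length was a whole multiple of 1 step, within 0.001 read, for 98.7% to 98.9% of low values (up to 200 reads) in each library, which gave the depth. No 2 libraries agreed within sampling noise (smallest chi-square per gene 4.97).

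Genes with a mean of at least 1 TPM were fitted on the log2(TPM + 1) scale in limma 3.58.1 (R 4.3.3; lmFit, trended eBayes). The model held genotype alone, and tests were two-sided. This scale understates the change of weakly expressed genes. Single values were tested by exact permutation. Folds are ratios of group means. Alternatives were other pseudocounts (0.1, 5), filters (none, 5 TPM), scalings, variance settings, a replicate block, sex as a covariate, voom on recovered reads and leaving out each library.

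The 6 members and the other gene lists were chosen with earlier results of these data known. The genes named are the members, a set of otic and neighbouring genes given whatever their result, the called list members with the smallest p (up to 3 for otic lists, 1 for others) and the 5 genes most like Pax2 and Oc90; other genes were named after their values were seen. Some genes of these lists are not reported here and are not in their counts. The 4 Y-linked genes gave sex, and 8 liver genes a check of dissection.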

Additional observations from a re-analysis of the deposited data

Results flagged for a closer look

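Dixon's test at the 95% level was applied to 65 gene-by-genotype sets of 4 values each, and 11 contained a library well apart from its group. About 1 in 20 would be found by chance if the sets were independent and normally distributed. These sets share libraries and some rest on few reads, so the 11 cannot be set against that rate. Trex replicate 1, each time as the highest, accounted for 6 of the 11. It held 9.52 TPM of Pax8 where the other trex libraries held 3.04 to 3.47. It held 2.48 TPM of Hmx2 (others 0.162 to 0.410) and 1.83 TPM of Otog (others 0.0840 to 0.109). It held 35.3 TPM of Lmx1a (others 8.85 to 12.4), 13.5 TPM of Gata3 (others 8.74 to 9.33) and 25.2 TPM of Fgf3 (others 9.97 to 10.3). Trex replicate 3 held 0.690 TPM of Oc90 (7 reads), with the other trex libraries at 0.

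In wt, replicate 1 held 82.9 TPM of Sall1 where the others held 69.5 to 71.0. Wt replicate 2 held 0.110 TPM of Hmx2 (others 0.0533 to 0.0572), a matter of 2 reads against 1. Wt replicate 4 held 0.146 TPM of En2 (others 0.0484 to 0.0520), a matter of 3 reads against 1. It was lowest for Sox3 at 71.5 TPM (others 89.9 to 93.4).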

How the results depend on the processing

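None of the members fitted was called in any of the 20 alternatives: 4 members were fitted in 18 of them, all 6 with no filter, and Sall1 alone with the 5 TPM filter. Their adjusted p in limma ranged from 0.123 to 0.600 for Pax8, 0.321 to 0.936 for Pax2, 0.350 to 0.925 for Sall1 and 0.368 to 1.0 for Fbxo2. Fbxo2, near 0, changed sign after quantile normalization (-0.04), with array weights (-0.11), with sex as a covariate (-0.19) and with voom (-0.0003), and ran from -0.32 to 0.28 when single libraries were left out. Sall1 was -0.01 with array weights. Foxi3 was -0.05 with array weights and -0.09 with sex as a covariate, and ran from -0.11 to 0.29 when single libraries were left out. Epcam ran from -0.06 to 0.28. The cause was not tested. The count of called genes was 694 with no filter, 5524 with array weights and 39 with sex as a covariate, and from 201 (without wt replicate 2) to 2911 (without trex replicate 2) when single libraries were left out. With sex as a covariate 1 of the 14 called genes named by rule, Nkx2-1, was still called. Gbx2 was not called with no filter or without the variance trend. The 5 TPM filter left out Nkx2-1 and En1, and recomputing TPM without sex chromosome genes left out Sox3. The split of higher and lower genes was 692 and 692 after median-of-ratios rescaling, 633 and 670 on recomputing TPM, and 633 and 809 with voom.

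The deposited titles share no number between the groups, and the wt libraries were renumbered here in the order of their titles. Libraries with the same number deviated together at 0.1623, -0.0225, -0.0045 and 0.2522, and the numbers are not taken as pairs. Replicates 1 and 4 correlated best with their own number and replicates 2 and 3 did not, which cannot show pairing because the numbers were given here. With a replicate block 687 genes were called, none of them a member, and Osr1 was no longer called. In that fit 1 of 4 members, Pax8, had an unadjusted p below 0.05 in limma (adjusted p = 0.161). With the block, the Pax2 to Pax8 difference stayed at -0.37 (exact p = 0.625, where the smallest is 0.125). Leaving out single libraries moved that difference from -0.77 (without trex replicate 4) to -0.00 (without wt replicate 2). The Fbxo2 to Oc90 ratio could not be computed, since Oc90 was at 0 in 7 libraries. Depth limits Oc90, Otx1, Hmx2, Hmx3 and Otog most.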

Other observations

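Within each genotype, the library numbered 1 here was the highest for Pax8, Fbxo2, Otx1 and Sall1. The shared number does not pair these libraries. Trex replicate 1 was the highest trex library for 44.5% of all tested genes. Wt replicate 1 was the highest of all 8 libraries for 14.7% of tested genes, against 5.02% to 8.96% for the other wt libraries. In wt, replicate 1 held 3.25 TPM of Pax8 (others 2.07 to 2.75), 5.43 TPM of Fbxo2 (others 2.88 to 3.74) and 0.238 TPM of Otx1 (others 0.0316 to 0.159). With the genotype means taken off, Pax8 correlated over the 8 libraries with Fbxo2 at r = 0.927, Otx1 at 0.826 and Sall1 at 0.826. Without trex replicate 1 these values were 0.614, 0.562 and 0.799. A share of 5.03% of tested genes correlated with Pax8 above 0.9, and 5.25% with Fbxo2, so the likeness is common in these libraries. The genes nearest to Pax8, sought after its values were seen, were Fmn1 (0.994), Ubxn1 (0.993) and Vps13b (0.991).

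Liver bud and yolk sac endoderm genes, a check of how far the dissection reached, summed to 10.1, 31.5, 234.8 and 477.7 TPM in trex replicates 1 to 4, against 11.6, 5.36, 165.8 and 177.4 TPM in wt replicates 1 to 4. None of the 8 genes was called in limma, and 0 had an unadjusted p below 0.05.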
